A study of Mus musculus with 6 samples.

Results

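The regulators of cortical layer identity followed here were Cux1, Cux2, Rorb, Tbr1, Fezf2, Tle4, Bcl11b, Foxp2 and Foxp1, which were picked by gene symbol. All 9 were among the 13348 genes listed, and they carried 21 of the 24676 transcripts listed. Bulk RNA from the orbitofrontal cortex of 12-week-old C57BL/6 mice was sequenced in 6 libraries, 3 per group. The control group was labelled as given a scrambled short hairpin RNA (shRNA), and the knockdown group received a lentivirus in the orbitofrontal cortex that makes an shRNA directed at the circHomer1a junction. CircHomer1a is a circular RNA spliced from Homer1 exons. Strain, age and tissue were common to both groups, and the labels did not name the cells that took up the virus. Whether each sample was 1 mouse is not stated. The p-values here cover the spread between these samples alone, and that spread may be technical. The circular RNA was not measured here, so the knockdown itself was not checked.

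Excitatory neurons of the neocortex lie in layers that differ in their targets. Upper-layer neurons connect cortical areas with each other, layer 5 neurons send axons to the brainstem, spinal cord and striatum, and layer 6 neurons project mainly to the thalamus. These identities are set during development by factors that repress one another, and many of the factors stay on in the adult, where they serve as layer markers. Cux1 and Cux2 are homeobox genes of the upper layers, and Rorb encodes a nuclear receptor best known from layer 4, which is not a distinct layer in mouse orbitofrontal cortex. Fezf2 and Bcl11b (Ctip2) encode zinc finger proteins that specify layer 5 neurons with subcortical axons. Tbr1, a T-box factor, and Foxp2, a forkhead factor, mark layer 6, as does Tle4, which encodes a corepressor of the Groucho family and not a DNA-binding protein. Foxp1, a second forkhead gene, is on in both upper and deep layers. Bcl11b, Foxp1 and Foxp2 are also expressed by the medium spiny neurons of the striatum, which lies beneath the frontal cortex.

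Values are FPKM, fragment numbers divided by the length of the feature and by the size of the library. Where 3 values of a group are listed, they are those of replicate 1, 2 and 3 in that order. The FPKM of listed genes summed to between 256047 and 285833 per library, and read depth was unknown. Control 2 held the lowest value of 31.8% of tested genes, against 10.7% to 17.4% in each of the other 5 libraries. Markers of the striatum differed widely between libraries. Their 15 members summed to between 391 FPKM (control 3) and 1513 FPKM (control 2) in control and between 635 and 886 FPKM in knockdown libraries, and none was at 0 in any library. In bulk tissue, fewer cells of a type and less RNA per cell cannot be told apart. Excitatory neuron markers summed to between 344 and 591 FPKM in control and between 361 and 425 FPKM in knockdown libraries, and again none of the 8 was at 0. The lowest sum was that of control 1, but 5 of the 8 genes were lowest in control 2. Not all of these 8 are specific to cortex, and 1 of them is Tbr1.

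No layer regulator passed the threshold between knockdown and control. Tests used limma on log2(FPKM + 1) over 11961 genes with a mean of at least 1 FPKM, with Benjamini-Hochberg adjustment at 0.05, and all 9 genes were above that minimum. Of the 9, 0 were called, where 0% of all tested genes were called. At an unadjusted p under 0.05, 1 of the 9 was called (Foxp1), where 3.57% of all tested genes were. The groups did not overlap in 1 of the 9 (again Foxp1), where they did not overlap in 7.92% of tested genes, 3.47% with knockdown lower and 4.45% with knockdown higher. A count of 1 gene does not set the 9 apart from the background. Fold changes were above 0 for 4 genes and below 0 for 5, with a median of -0.02 against 0.02 for all tested genes. By mean gene FPKM over the 6 libraries the order was Tbr1 (20.6), Bcl11b (15.0), Fezf2 (13.4), Tle4 (9.80), Foxp1 (4.85), Cux2 (3.85), Cux1 (2.59), Foxp2 (1.93) and Rorb (1.67). The ranges of each neighbouring pair in that order overlapped.

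**Figure D1:**
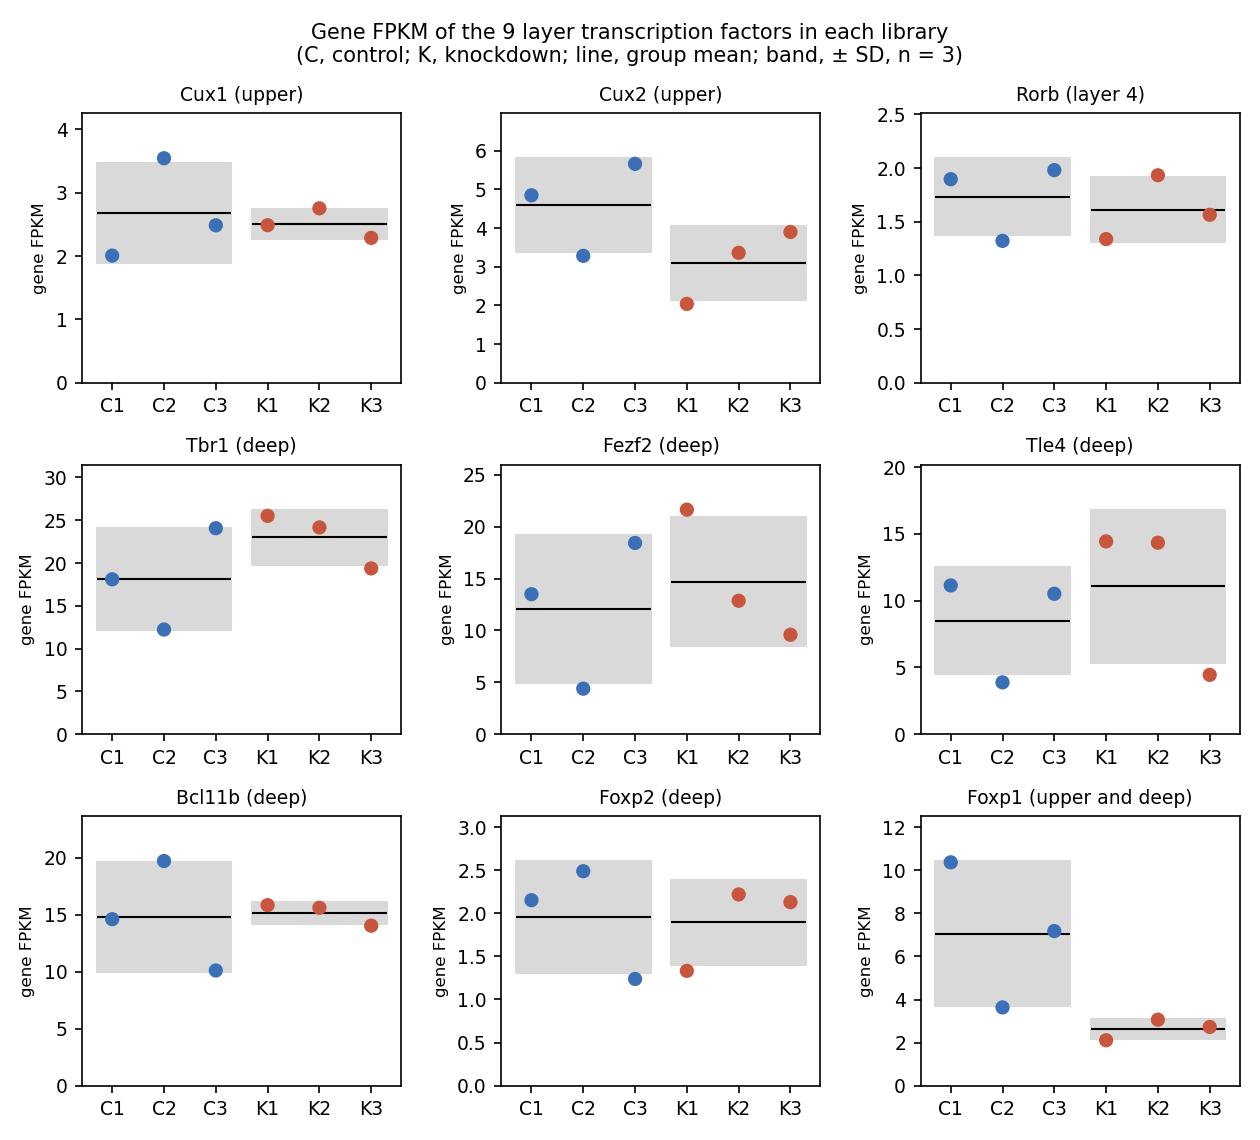
Gene FPKM (vertical axes, each from 0) of the 9 layer regulators in every library, with blue points for control (C1 to C3), red points for knockdown (K1 to K3), a line for the group mean and a band for ± SD (n = 3). Foxp1 is the only panel in which the groups do not overlap, while Fezf2, Tle4 and Tbr1 are lowest in control 2.

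All 3 upper-layer genes had lower means in knockdown libraries, by the most for Cux2, and the groups overlapped in each. Cux2 (chromosome 5, 121856366 to 122050102, minus strand) was at 4.85, 3.28 and 5.66 FPKM in the controls and 2.04, 3.36 and 3.90 FPKM in the knockdowns. Knockdown 1 was lower than every other library, and control 2 lay among the knockdown values. The group values were 4.60 ± 1.21 and 3.10 ± 0.957 FPKM (SD, n = 3 each), with a log2 fold change of -0.45 (95% interval -0.99 to 0.08, limma adjusted p = 0.948). Alternatives gave -0.63 to -0.25 for Cux2, with no call. Cux1 (chromosome 5, 136248135 to 136567490, minus strand) was at 2.01, 3.54 and 2.49 FPKM in the controls and 2.49, 2.75 and 2.29 FPKM in the knockdowns. All 3 knockdown values lay within the control range, and the log2 fold change was -0.05 (95% interval -0.43 to 0.33). Rorb (chromosome 19, 18930605 to 19111196, minus strand) was at 1.90, 1.32 and 1.98 FPKM in the controls and 1.34, 1.93 and 1.57 FPKM in the knockdowns. Its groups overlapped almost completely, with a log2 fold change of -0.06 (95% interval -0.40 to 0.27). The only listed Rorb transcript, Rorb-203, had the opposite sign, with a log2 fold change of 0.18 (95% interval -0.42 to 0.77).

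The Cux1 locus yields more than the homeobox protein. Alternative splicing joins the first part of its coding sequence to a separate set of 3′ exons, which encode the end of CASP, a Golgi membrane protein without the DNA-binding domains of Cux1. In GENCODE M21 (GRCm38), Cux1-201 has 1426 codons and holds the homeobox, while Cux1-205, Cux1-207 and Cux1-211 have 472, 678 and 676 codons, end at the same downstream stop and hold no homeobox match. Cux1-201 and Cux1-207 share 14 coding exons, the last of them at chr5:136314307-136314403. From there Cux1-201 continues at chr5:136312643-136313008 and Cux1-207 at chr5:136257913-136258040. The coding sequence across that junction, from the GENCODE M21 transcripts on the minus strand, is shown because it separates the forms, with the last 30 shared bases in lower case and the first 45 bases of the next exon in capitals.
Cux1-201: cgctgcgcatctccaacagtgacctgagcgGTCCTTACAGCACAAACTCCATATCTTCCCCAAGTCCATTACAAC
Cux1-207: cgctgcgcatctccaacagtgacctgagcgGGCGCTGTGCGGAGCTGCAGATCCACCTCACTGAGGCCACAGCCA

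Most of the RNA listed under Cux1 was of the short form. Cux1-207 was at 10.2, 14.3 and 9.40 FPKM in the controls and 10.2, 10.2 and 8.95 FPKM in the knockdowns. Its levels differed little between libraries except for the higher value in control 2. Cux1-201, the only listed transcript with the homeobox, was at 0, 1.46 and 0.766 FPKM in the controls and 0.531, 1.21 and 0 FPKM in the knockdowns. Each group thus had 1 library at 0 for the homeobox transcript, whose mean of 0.660 FPKM was under the minimum for testing. The level of Cux1-205 lay between 0.783 and 3.51 FPKM and that of Cux1-211 between 0.742 and 2.68 FPKM, both highest in knockdown 3. Weighted by length, the 3 transcripts without the homeobox held between 61.8% (knockdown 2) and 88.6% (knockdown 3) of the gene value, and Cux1-201 held at most 28.3% (knockdown 2). Most of the Cux1 gene value thus came from transcripts without homeobox codons. Gene FPKM is per base of all exons joined, 20024 bases for Cux1 against 2821 for Cux1-207, so the gene value is lower than that of its main transcript. In limma, Cux1-207 had a log2 fold change of -0.17 (95% interval -0.60 to 0.26, adjusted p = 0.950).

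Cux1 and Cux2 encode nearly the same core of the homeodomain. The bases below, from the coding sequences of Cux1-201 and Cux2-202 in GENCODE M21, are shown because they are absent from the 3 short Cux1 transcripts and present in both listed Cux2 transcripts. Capitals mark the codons of the searched pattern, tryptophan, phenylalanine, any residue, asparagine, any residue and arginine. Of 48 bases 40 were identical, and 14 of 16 codons gave the same amino acid.
Cux1-201: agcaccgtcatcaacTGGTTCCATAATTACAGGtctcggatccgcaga
Cux2-202: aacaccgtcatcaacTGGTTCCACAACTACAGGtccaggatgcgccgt

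Tbr1, Fezf2 and Tle4 differed widely between libraries of the same group and had their extremes in the same libraries. Fezf2 (chromosome 14, 12342094 to 12348189, minus strand) was at 13.5, 4.39 and 18.4 FPKM in the controls and 21.6, 12.9 and 9.58 FPKM in the knockdowns. Tle4 (chromosome 19, 14448072 to 14598051, minus strand) was at 11.1, 3.89 and 10.5 FPKM in the controls and 14.4, 14.3 and 4.45 FPKM in the knockdowns. Tbr1 (chromosome 2, 61802930 to 61814114, plus strand) was at 18.1, 12.2 and 24.1 FPKM in the controls and 25.5, 24.2 and 19.4 FPKM in the knockdowns. All 3 genes were lowest in control 2 and highest in knockdown 1, and within the knockdown group all 3 were lowest in knockdown 3. Of all tested genes, 31.8% were lowest in control 2 and 26.5% highest in knockdown 1, each the largest share of any library. The highest library exceeded the lowest 4.93-fold for Fezf2, 3.72-fold for Tle4 and 2.09-fold for Tbr1.

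The spread within groups was large for these genes. Within-group SD on the log2 scale was 0.80 for Tle4 and 0.79 for Fezf2, against a median of 0.15 over all tested genes. It was larger than in 98.7% (Tle4) and 98.5% (Fezf2) of the 1196 tested genes closest to them in mean level (the genes were split into 10 bins). For Tbr1 it was 0.36, larger than in 94.1% of its bin. Log2 fold changes between groups were 0.38 for Fezf2 (95% interval -0.78 to 1.53, limma adjusted p = 0.954), 0.31 for Tle4 (-0.87 to 1.48, 0.956) and 0.37 for Tbr1 (-0.17 to 0.91, 0.948). Without control 2 they were -0.17, -0.12 and 0.13, so the sign for Fezf2 and Tle4 rested on that library.

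Bcl11b and Foxp2 did not follow the other deep-layer genes. Bcl11b (chromosome 12, 107910403 to 108003602, minus strand) was at 14.6, 19.7 and 10.1 FPKM in the controls and 15.8, 15.6 and 14.0 FPKM in the knockdowns. Foxp2 (chromosome 6, 14901349 to 15441977, plus strand) was at 2.15, 2.49 and 1.24 FPKM in the controls and 1.33, 2.22 and 2.13 FPKM in the knockdowns. Both were highest in control 2 and lowest in control 3, the reverse of Fezf2 and Tbr1 within the control group. The striatal markers had the same extremes: of 15, 14 were highest in control 2 and 15 were lowest in control 3. Their mean centred log2 level was 0.82 in control 2, -1.03 in control 3 and between -0.17 and 0.19 in the other 4 libraries. The part of striatal tissue in the Bcl11b and Foxp2 values was not tested.

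Between groups, neither gene differed beyond its spread. The log2 fold change was 0.08 for Bcl11b (95% interval -0.42 to 0.58, limma adjusted p = 0.974) and -0.02 for Foxp2 (-0.50 to 0.46, 0.994). The sign for Bcl11b turned without control 3 (-0.16), and the fold change was 0.29 without control 2. For Foxp2 it turned under 6 of 16 alternatives, with a range of -0.21 to 0.13.

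Foxp1 showed the largest difference between groups of the 9, which did not pass the adjusted threshold. Foxp1 (chromosome 6, 98925338 to 99522721, minus strand) was at 10.4, 3.63 and 7.18 FPKM in the controls and 2.11, 3.06 and 2.73 FPKM in the knockdowns. Every knockdown library lay below every control library, but control 2 was only slightly above knockdown 2. The groups were at 7.06 ± 3.37 and 2.63 ± 0.484 FPKM (SD, n = 3 each), and most of the spread was in the controls. The log2 fold change was -1.06 (95% interval -1.79 to -0.34), with an unadjusted limma p of 0.0103 and an adjusted p of 0.948. The two-sided exact permutation p was 0.1, the smallest that 3 against 3 libraries can give. Across 16 alternatives the fold change stayed between -1.42 and -0.77 with adjusted p between 0.200 and 1.00, and 0 of them gave a call. Foxp1 did not take the extremes of the striatal markers, since it was highest in control 1 and lowest in knockdown 1.

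**Figure D2:**
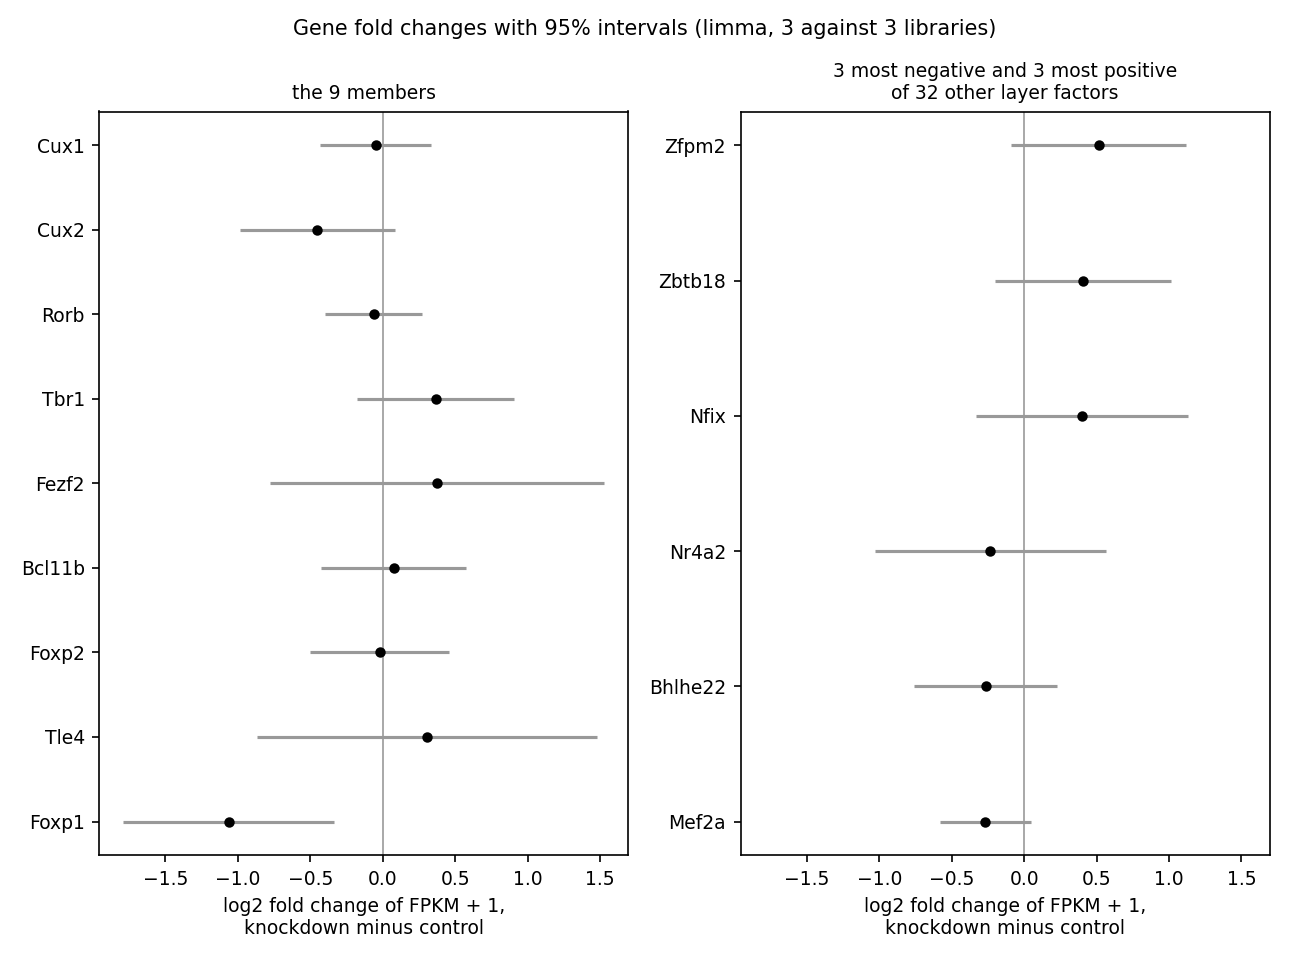
Log2 fold change of FPKM + 1, knockdown minus control (horizontal axis), with 95% limma intervals for the 9 layer regulators (left) and, of 32 other cortical layer and projection neuron transcription factors, the 3 most negative and 3 most positive (right). Of those drawn, only the Foxp1 interval (-1.79 to -0.34) leaves out 0, at an unadjusted level.

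Upper against deep layer genes was read in each library from centred log2(FPKM + 1), each gene minus its mean over the 6 libraries. The mean over Cux1, Cux2 and Rorb was 0.06, 0.01 and 0.21 in the controls and -0.28, 0.04 and -0.04 in the knockdowns. Upper-layer values were thus highest in control 3 and lowest in knockdown 1. In control 2 the mean joined 0.35 for Cux1 with -0.14 for Cux2 and -0.20 for Rorb. Most of the Cux1 value came from transcripts without homeobox codons. The mean over Tbr1, Fezf2, Bcl11b, Foxp2 and Tle4 was 0.09, -0.46 and 0.04 in the controls and 0.31, 0.25 and -0.23 in the knockdowns. Upper minus deep was -0.02, 0.46 and 0.17 in the controls and -0.60, -0.21 and 0.19 in the knockdowns. Control 2 stood at the upper end and knockdown 1 at the deep end, and knockdown 3 lay above control 1 and 3, so the groups overlapped.

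The difference of the group means was -0.41 on the log2 scale (0.20 ± 0.244 in control, -0.20 ± 0.395 in knockdown, SD, n = 3 each), with no test because the genes were chosen with results known. It was -0.21 without knockdown 1 and -0.28 without control 2, and otherwise between -0.61 and -0.38 in the alternatives that gave a value with the full lists. With Bcl11b and Foxp2 left out of the deep list it was -0.54, and with Cux1 left out of the upper list -0.48, both chosen after seeing the data.

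**Figure D3:**
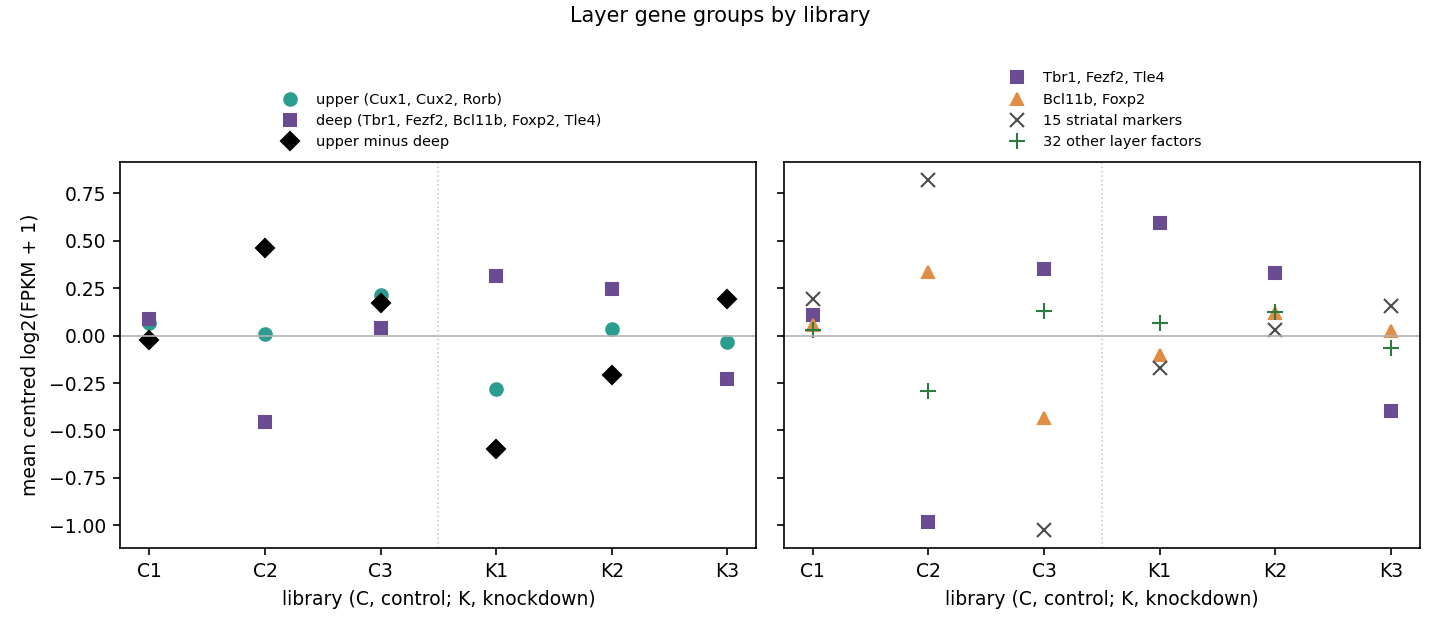
Mean centred log2(FPKM + 1) per library (vertical axis) for the upper and deep lists and their difference (left), and for Tbr1, Fezf2 and Tle4, for Bcl11b and Foxp2, for 15 striatal markers and for 32 other layer factors (right). In control 2 the difference is 0.46, the striatal markers are at 0.82 and Tbr1, Fezf2 and Tle4 are at -0.98.

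Transcripts of the 9 genes gave no call either. Of 21 listed, 17 had a mean of at least 1 FPKM, and limma over 18476 transcripts called 0 of the 17, where 0.103% of all tested transcripts were called. At an unadjusted p under 0.05, 1 of 17 was called (Foxp1-204), where 3.81% of all tested transcripts were, and the groups did not overlap in 1 of 17, with knockdown lower, where 8.8% did not overlap (4.22% with knockdown lower and 4.57% with knockdown higher). Transcript usage within a gene was tested with diffSplice, which is known to be too liberal, so its calls over all genes may hold too many false ones. It called 0 of the 5 genes with at least 2 tested transcripts, where 1.15% of 4091 genes were called. None of the 5 had an unadjusted p under 0.05, where 11.1% of genes did, and adjusted p ran from 0.763 (Foxp1) to 0.938 (Fezf2).

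Foxp1-204, a transcript of 19 exons and 705 codons, carried most of the difference in Foxp1. It was at 15.5, 5.27 and 8.19 FPKM in the controls and 2.70, 2.71 and 1.32 FPKM in the knockdowns. All knockdown values lay below all control values. The knockdown minus control difference was -1.63 on the log2 scale, with a 95% interval of -2.63 to -0.64. It had an adjusted limma p of 0.841 and an exact permutation p of 0.1, and 16 alternatives gave -1.99 to -1.26 with no call. Foxp1-230 starts at an internal exon, has 576 codons and keeps the forkhead. It was at 9.97, 0 and 10.7 FPKM in the controls and 0, 3.22 and 7.98 FPKM in the knockdowns, so each group held 1 library listed at 0. Its log2 fold change was -0.59 (95% interval -3.68 to 2.50). Foxp1-228 and Foxp1-225, which also hold the forkhead, lay between 0.332 and 1.85 FPKM and between 0.242 and 1.55 FPKM, with overlapping groups. The model of Foxp1-224 holds 30 codons that run to its 3′ end, so its coding sequence may be incomplete. Its lack of a forkhead match therefore does not show a separate short protein. Foxp1-224 was at 0.376, 0.358 and 0.538 FPKM in the controls and 0.720, 1.02 and 0.682 FPKM in the knockdowns. It was higher in every knockdown library than in any control, the opposite order to the gene, at a mean of 0.615 FPKM that was too low to be tested.

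Cux2 and Fezf2 each split between transcripts with one and the same protein. Cux2-202 and Cux2-210 both have 1426 codons, and Cux2-210 begins at a start site inside the gene. Cux2-210 was at 3.73, 0.0553 and 4.72 FPKM in the controls and 0.116, 3.02 and 0.142 FPKM in the knockdowns, which put control 2, knockdown 1 and knockdown 3 near 0 and the other 3 libraries above 3. Cux2-202 was at 2.86, 3.67 and 3.32 FPKM in the controls and 2.19, 1.92 and 4.26 FPKM in the knockdowns and held between 49.9% and 97.5% of the gene value. Fezf2-201 and Fezf2-203 both have 455 codons and 6 zinc finger matches and differ only outside the coding sequence. Fezf2-203 was at 11.7, 2.62 and 15.4 FPKM in the controls and 20.4, 11.8 and 1.69 FPKM in the knockdowns. Its low libraries were control 2 and knockdown 3, the lowest of their groups in gene level too. Fezf2-201 was at 5.02, 3.15 and 7.89 FPKM in the controls and 6.30, 4.18 and 10.3 FPKM in the knockdowns, and held 77.4% of the gene value in knockdown 3 against 20.9% to 51.6% elsewhere. Fezf2-202, with 373 codons and 3 zinc finger matches, stayed between 0.0613 and 1.30 FPKM.

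**Figure D4:**
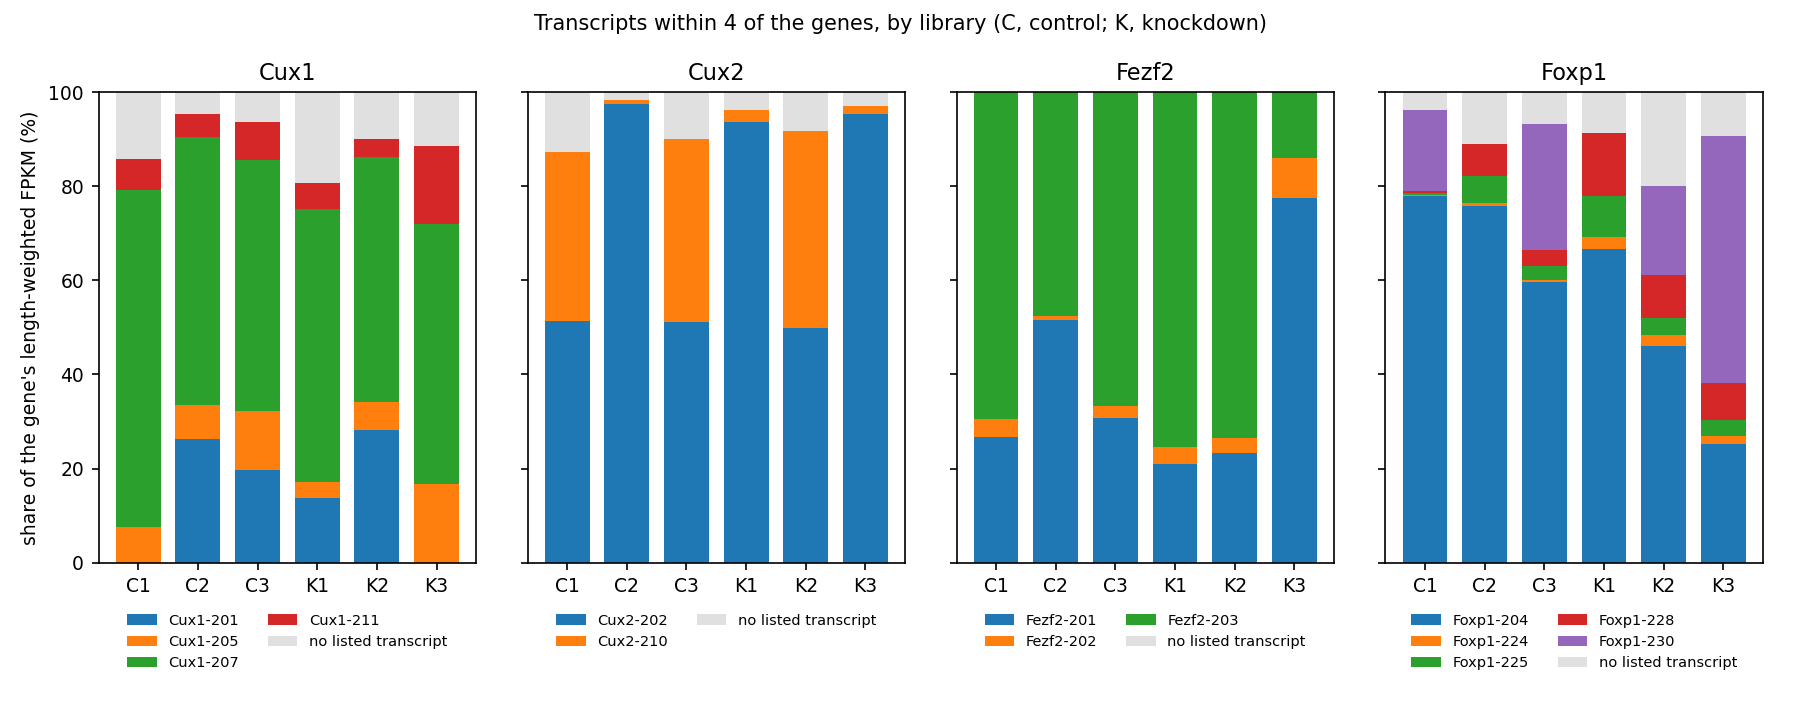
Share of the length-weighted FPKM of Cux1, Cux2, Fezf2 and Foxp1 (vertical axis, %) held by each listed transcript in the control (C1 to C3) and knockdown (K1 to K3) libraries, with grey for the rest of the gene value. Cux2-210 is near 0 in C2, K1 and K3, Foxp1-230 is at 0 in C2 and K1, and Cux1-201 is at 0 in C1 and K3.

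The remaining genes were carried by 1 main transcript. Tbr1-201 held at least 99.3% of the Tbr1 value. Tle4-201 was at 3.94 to 14.7 FPKM, close to the Tle4 gene value of 3.89 to 14.4 FPKM. By the lengths of GENCODE M21 it held between 80.3% and 81.0% of the gene value in every library. The Tle4 coordinates differ from that release, so those lengths may not apply and no share of other transcripts can be read from this. Bcl11b-201, of 884 codons, held between 89.4% and 92.1%, with Bcl11b-203, of 812 codons and the same 6 zinc finger matches, at 3.01 to 4.35 FPKM. Foxp2-207, of 714 codons, was at 4.93, 5.80 and 2.97 FPKM in the controls and 2.34, 5.19 and 5.09 FPKM in the knockdowns. Foxp2-204 was listed at 0 in 5 libraries and at 1.53 FPKM in knockdown 1, the library with the lowest Foxp2-207. Rorb-203, of 459 codons, held at least 94.8% of the Rorb value in 5 libraries and 44.5% in control 1. How the authors' assembler shared fragments among overlapping transcripts cannot be told from these tables, so near-zero and high values of alternative transcripts carry that uncertainty.

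RefSeq promoter windows (GRCm38.p6) matched 8 of the 9 genes by symbol, all but Foxp2, with 13 windows in all. The 250 bases before the start are printed for Tbr1 and Tle4, which were low in the same library, and for the internal Foxp1 start ahead of Foxp1-230. They were searched on both strands for the CCAAT box, for the TATA box as the letters TATAAA, for a forkhead motif spelled TGTTTAC and for a homeodomain motif spelled TAATTA. Matches are in capitals and did not overlap each other here. Tbr1 (chr2:61804203-61804452, plus strand), where GENCODE M21 also places an exon of a noncoding Tbr1 transcript, held TAATTA at 2 places, and 4.84% of 32851 windows of that length held it at least once. Tle4 (chr19:14598184-14598433, minus strand) held CCAAT at 2 places and Foxp1 (chr6:99028299-99028548, minus strand) at 1, all as the reverse complement ATTGG, and 33.8% of windows held either form. These shares count windows with at least 1 match on either strand. The windows had 5, 24 and 34 CpG pairs, against a median of 6 over all windows. The Fezf2 window (14 CpG pairs) and a second Tle4 window (35 CpG pairs), not printed, held none of the 4 motifs, though Fezf2 was low in the same library too.
Tbr1: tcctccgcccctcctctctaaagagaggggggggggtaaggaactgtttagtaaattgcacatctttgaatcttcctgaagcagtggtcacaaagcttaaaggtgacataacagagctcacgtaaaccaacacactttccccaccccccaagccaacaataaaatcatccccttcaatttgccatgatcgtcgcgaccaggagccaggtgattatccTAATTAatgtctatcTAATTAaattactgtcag
Tle4: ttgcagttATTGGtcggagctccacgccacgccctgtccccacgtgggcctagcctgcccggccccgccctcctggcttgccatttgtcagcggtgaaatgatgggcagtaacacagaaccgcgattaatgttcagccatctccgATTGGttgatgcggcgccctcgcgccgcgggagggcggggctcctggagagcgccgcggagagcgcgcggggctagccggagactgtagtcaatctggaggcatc
Foxp1: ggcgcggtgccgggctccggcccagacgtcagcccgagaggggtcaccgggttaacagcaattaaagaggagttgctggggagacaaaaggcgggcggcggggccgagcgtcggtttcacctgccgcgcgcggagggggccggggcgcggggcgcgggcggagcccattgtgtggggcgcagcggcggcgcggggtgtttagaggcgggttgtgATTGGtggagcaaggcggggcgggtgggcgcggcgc

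Other transcription factors of cortical layers and projection neurons were often lowest in control 2, as were markers of several other cell types. The list held 32 genes, all tested, and 20 of them (62.5%) were lowest in control 2, against 31.8% of all tested genes. Control 2 was also lowest for 8 of 10 oligodendrocyte, 6 of 8 endothelial and 6 of 9 pan-neuronal markers. Other lists went the other way. Control 2 was highest for 14 of 15 striatal, 6 of 11 interneuron and 5 of 8 microglia markers, where 20.0% of all tested genes were highest there. Among the 32, 0 passed over all genes tested and 0 had an unadjusted limma p under 0.05. The groups did not overlap in 2 of 32 (6.25%, Mef2a lower and Sox5 higher), near the 7.92% of all tested genes, and the median log2 fold change was 0.08 against 0.02 for all tested genes. The most positive fold changes were those of Zfpm2 (0.52), a cofactor of layer 6 neurons, Zbtb18 (0.41), a repressor needed for cortical neuron maturation, and Nfix (0.40), a nuclear factor I gene. The most negative were those of Mef2a (-0.27), Bhlhe22 (-0.27) and Nr4a2 (-0.23), a nuclear receptor of the subplate and layer 6b.

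Layer markers that are not transcription factors gave lower medians for the upper layers. Of 11 tested upper-layer markers 9 had a fold change below 0, with a median of -0.36, where 44.3% of all tested genes were below 0. None passed over all genes tested, and 3 of 11 had an unadjusted limma p under 0.05, against 3.57% of all tested genes. Rspo1, a Wnt pathway ligand, was at 3.73, 5.66 and 4.03 FPKM in the controls and 2.58, 2.75 and 2.25 FPKM in the knockdowns, a log2 fold change of -0.62 (limma adjusted p = 0.948). Calb1, a calcium-binding protein, was at 27.9, 41.9 and 18.0 FPKM in the controls and 15.9, 18.9 and 15.4 FPKM in the knockdowns (-0.70, 0.948). Both genes were among 5 of 11 upper-layer markers highest in control 2, the control richest in striatal markers. Another 1 of the 11 was lowest there. Among deep-layer markers, 4 of 15 were highest and 7 lowest in control 2. Of all tested genes, 20.0% were highest and 31.8% lowest there. The part of striatal tissue in these marker values was not tested. Of 15 tested deep-layer markers 10 had a fold change above 0, with a median of 0.14, 0 passed and 1 of 15 had an unadjusted p under 0.05, against the same 3.57%. Cplx3, a complexin of subplate neurons, was at 6.60, 6.37 and 8.84 FPKM in the controls and 12.2, 10.8 and 11.2 FPKM in the knockdowns (0.60, 0.948). Deptor, an inhibitor of mTOR signalling, overlapped between groups (0.24, 0.948).

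The summed levels of other cell types beside these genes were as follows. Interneuron markers summed to between 805 and 947 FPKM in control and between 683 and 865 FPKM in knockdown libraries. Of the 11 tested, 8 had a fold change below 0. The groups did not overlap in 1 of 11 (Sst, lower in knockdown libraries), against 3.47% of all tested genes. Sst also had the only unadjusted limma p under 0.05, against 3.57%. With the highest level of these markers, Sst was at 482, 554 and 496 FPKM in the controls and 380, 388 and 473 FPKM in the knockdowns. Oligodendrocyte markers summed to between 1201 and 1534 FPKM in control and between 1427 and 1926 FPKM in knockdown libraries. All 10 oligodendrocyte markers had a fold change above 0, where 44.3% of all tested genes were below 0. Their median was 0.32 on the log2 scale, with overlapping groups for each. Of the 10, 2 had an unadjusted limma p under 0.05, against 3.57% of all tested genes, and 0 passed over all genes tested. Of 8 astrocyte markers, 5 had a fold change above 0 (median 0.10), and the groups did not overlap in 2, both higher in knockdown libraries. Over all tested genes the groups did not overlap in 7.92%, and in 4.45% with knockdown higher. Of 8 microglia markers, 3 had a fold change above 0 (median -0.05). The groups did not overlap in 1 of the 8, higher in knockdown libraries, against the same 4.45%. Cx3cr1, a chemokine receptor of microglia, was at 2.90, 2.86 and 2.02 FPKM in the controls and 8.82, 8.23 and 3.94 FPKM in the knockdowns, a log2 fold change of 1.10 (limma adjusted p = 0.948) without overlap. Endothelial markers summed to between 74.0 and 97.1 FPKM in control and between 74.8 and 88.3 FPKM in knockdown libraries. No listed marker of these 5 cell types was at 0 in any library. Knockdown 1, the library with the lowest upper-layer mean, had the highest oligodendrocyte sum and the lowest interneuron sum. The part of cell composition in the layer gene values was not tested.

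Genes with the pattern nearest to each regulator were sought among 7092 tested genes with a mean of at least 5 FPKM, by the mean absolute difference of centred log2 values over the 6 libraries. The nearest to Tle4 was Pip5k1a (0.14), at 10.7, 4.32 and 9.85 FPKM in the controls and 11.7, 11.0 and 4.59 FPKM in the knockdowns. The nearest to Fezf2 was Adgra1 (0.19), and that to Tbr1 was Efhd2 (0.05). St8sia3 was nearest to Bcl11b (0.06), at 22.4, 28.5 and 14.5 FPKM in the controls and 20.7, 23.8 and 20.1 FPKM in the knockdowns. Jakmip1 was nearest to Foxp2 (0.05), Car4 to Cux2 (0.06), Med28 to Cux1 (0.05) and Selenoh to Rorb (0.03). Foxp1 had the least close neighbour, Stard7 (0.27), at 14.4, 4.14 and 10.7 FPKM in the controls and 5.17, 5.88 and 6.22 FPKM in the knockdowns. With 6 libraries and so many candidates, a close match to any gene can be found, so these names are a description.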

How the data were processed

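RNA of 6 libraries was measured by strand-preserving RNA-seq, per the labels' protocols. The tools FastQC, cutadapt, HISAT2 and StringTie were used per the submitters' processing notes, which give no versions, and the genome build and annotation are not given in the sources used here. The deposited tables hold FPKM values by the authors, 1 column per library, per the file headers. Of the 21 listed transcripts, 20 had exactly the coordinates of GENCODE M21 (GRCm38), from which exons and codons were taken, and Tle4-201 did not. FPKM are not counts, so no count test was used and precision came from replicates. A search for whole-read steps in low transcript values found at best 15.9% within 0.05 of a whole number. It included transcripts that share fragments, so it cannot show whether such steps exist. The median half-width of a gene's 95% interval was 0.29 (log2), and 0.57 for a transcript.

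Log2(FPKM + 1) was fitted over all features averaging 1 FPKM or more with limma 3.58.1 (R 4.3.3, intensity trend), checked on simulated data. Fold changes on this scale understate the change of low features. Single values were compared by exact permutation. Alternatives covered the pseudocount, filter, scaling, variance model, weights, the replicate number as a block and the omission of each library. Members and lists were chosen with earlier results of these data known. Named were all members and their transcripts, the 3 most positive and 3 most negative other layer factors, up to 2 genes per marker list by p where a result turned on them, and 1 nearest gene per member. Sox5 was named after its values were seen. Some results are not reported here.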

Additional observations from a re-analysis of the deposited data

How the results depend on the processing

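No alternative called any of the 9 genes or their 17 tested transcripts. Of 148 refits of the genes, 14 turned the sign, and of 260 refits of the transcripts, 21. Cux2, Tbr1 and Foxp1 kept their sign in every refit. Signs turned with array weights for Cux1 (0.056), Foxp2 (0.053), Bcl11b-203 (0.00077), Cux1-211 (-0.0064) and Fezf2-203 (0.034), and with a common sum for Foxp2 (0.016), Bcl11b-203 (0.019) and Fezf2-203 (0.044). A pseudocount of 0.1 turned Foxp1-225 (0.043), and gene values summed from listed transcripts turned Rorb (0.18) and Foxp2 (0.066). Leaving out 1 library gave ranges of -0.18 to 0.11 for Cux1, -0.18 to 0.014 for Rorb, -0.17 to 0.76 for Fezf2, -0.12 to 0.81 for Tle4, -0.16 to 0.29 for Bcl11b and -0.21 to 0.13 for Foxp2. For transcripts these were -0.15 to 0.059 (Bcl11b-203), -0.16 to 0.31 (Bcl11b-201), -0.57 to 0.095 (Cux1-205), -0.23 to 0.31 (Cux1-211), -0.68 to 0.86 (Fezf2-203), -0.40 to 0.047 (Foxp1-225), -1.75 to 0.29 (Foxp1-230), -0.34 to 0.18 (Foxp2-207) and -0.13 to 0.80 (Tle4-201).

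Over all features, genes called numbered 0 as reported, 1 with a common sum, 3 with array weights, 4 as sums of listed transcripts and 0 to 3 with 1 library left out. Transcripts called numbered 19, against 8 with a mean of at least 5 FPKM, 44 with no intensity trend and 11 to 32 with 1 library left out. Usage genes called numbered 47, against 92 with no filter, 13 with a mean of at least 5 FPKM and 74 to 110 with 1 library left out. For these counts the cause was not tested. With a mean of at least 5 FPKM the upper minus deep difference could not be computed, because no upper-layer gene passed. It was between -0.61 and -0.21 with 1 library left out.

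With the replicate block 0 transcripts were called, and the block changed no call among the 9 genes. Pairs with the same number had deviation correlations of 0.184, -0.127 and -0.0708, while control 2 was closest to knockdown 3 (0.269). With 3 libraries per group these values cannot show whether samples of the same number were paired or shared a batch. Read depth is unknown, which limits statements on transcripts near 0.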
